A study of Mus musculus with 16 samples.

Results

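Expression of 9 genes of triglyceride breakdown was examined in Mfge8 null enterocytes and in Cd36 null small intestine of mice. The genes were Pnpla2, Lipe, Mgll, Abhd5, Pnliprp2, Lipa, Lpl, G0s2 and Clps, taken by symbol from 2 deposited expression tables with 24420 features each, and all 9 had a row in both. The first table held isolated primary enterocytes, which absorb nutrients across the gut wall, from WT mice (4 libraries) and from mice labelled Mfge8 KO (5 libraries). The second held small intestinal tissue from WT mice (4 libraries) and from mice labelled Cd36 KO (3 libraries). All 16 libraries carry the strain label C57B6, and neither age, diet nor the way the alleles were made is given in the sources used here. MFGE8 is a glycoprotein that cells secrete and that engages integrins. CD36, a receptor of the cell surface, helps cells take up fatty acids.

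Triglyceride is broken down in steps and in separate places. In the gut lumen, lipases of the pancreatic family cut dietary triglyceride, and colipase, the product of Clps, anchors pancreatic lipase to the lipid droplet in the presence of bile salts; Pnliprp2 is a relative of pancreatic lipase that also cuts galactolipids and phospholipids. Inside cells, adipose triglyceride lipase (Pnpla2) removes the first fatty acid from stored triglyceride, with Abhd5 as its activator and G0s2 as its inhibitor. Hormone-sensitive lipase (Lipe) then cuts diglyceride, and monoglyceride lipase (Mgll) releases the last fatty acid. Lysosomal acid lipase (Lipa) cuts triglyceride and cholesteryl ester delivered to lysosomes, and lipoprotein lipase (Lpl) acts on circulating lipoproteins at the capillary wall.

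Promoter sequences are shown for Pnliprp2 and Lipa, because Pnliprp2 was higher in both null groups and Lipa had changes of opposite sign in the 2 comparisons. Clps, Mgll and Pnpla2 had opposite signs too, and the change of Lipa in enterocytes did not pass (limma adjusted p 0.1945). Both genes lie on chromosome 19, Pnliprp2 at chr19:58759719-58777534 on the plus strand and Lipa at chr19:34492318-34527474 on the minus strand (mm10, GENCODE annotation). Each sequence runs 5′ to 3′ on the gene's own strand from 250 bases before to 50 bases after the start, as RefSeq gives it for GRCm38.p6, the build also called mm10. The Pnliprp2 promoter is chr19:58759473-58759772 and the Lipa promoter chr19:34527425-34527724. Capitals mark matches to 6 motifs searched on both strands.
Pnliprp2 promoter: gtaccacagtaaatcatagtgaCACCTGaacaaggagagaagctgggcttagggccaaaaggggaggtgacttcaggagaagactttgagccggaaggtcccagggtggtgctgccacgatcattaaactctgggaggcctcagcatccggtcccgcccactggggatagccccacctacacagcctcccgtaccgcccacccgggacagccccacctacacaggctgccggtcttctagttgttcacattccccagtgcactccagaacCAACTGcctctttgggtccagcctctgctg
Lipa promoter: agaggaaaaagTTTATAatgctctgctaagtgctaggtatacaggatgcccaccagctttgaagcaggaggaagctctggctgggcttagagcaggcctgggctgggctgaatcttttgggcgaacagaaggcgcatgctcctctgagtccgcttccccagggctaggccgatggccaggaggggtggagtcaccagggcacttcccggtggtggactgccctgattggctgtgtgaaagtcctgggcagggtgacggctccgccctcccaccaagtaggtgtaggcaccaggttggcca
The Pnliprp2 window holds 2 matches to the E-box CANNTG, which occurs in 72.3% of 32851 promoters of the same length. They are CACCTG starting at -228 and CAACTG starting at 21, counted from the start of the transcript. The Lipa window holds TTTATA at -239, the reverse strand of the TATA box TATAAA, which 13.6% of promoters hold on either strand. The other motifs were the TC-box TTTCCCA (8.06% of promoters), the HNF4 core CAAAGTCCA (0.475%), the nuclear receptor element AGGTCA (16.3%) and the CLEAR core CACGTG (7.15%), a form of the E-box named for lysosomal genes. Of these, neither window holds a match. CACGTG occurs in 1 promoter window of Lipe, at -155, and in 1 of Mgll, at -44. In all, 7 of the 9 genes had a promoter in the table used, and Clps and Lpl did not. These matches describe letters in a window and are not binding sites.

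The values are reads per gene from 3' tag sequencing, which reads about 1 fragment per transcript near its polyadenylated end, divided by a size factor for each library. Depth was 1618369 to 2459812 reads per enterocyte library and 850297 to 1000694 per intestine library. The targeted genes followed the labels: Mfge8 was 14.8 ± 6.70 (SD, n = 4) in WT and 3.45 ± 2.43 (SD, n = 5) in Mfge8 null enterocytes, and Cd36 was 111 to 116 in WT and 6.48 to 15.98 in Cd36 null intestine. Cd36 also fell in Mfge8 null enterocytes, from 135 ± 20.2 (SD, n = 4) to 65.8 ± 25.1 (SD, n = 5), without overlap (log2 change -1.10, limma adjusted p 0.0234). Nothing in the labels ties replicates to separate animals, and the p-values therefore measure the spread between libraries, which may be technical. Intestine libraries of a genotype differed by about sampling noise (chi-square over degrees of freedom 0.987 to 1.117), whereas enterocyte libraries of a genotype differed by much more (6.26 to 20.2). The chi-square test still gave a p under 0.05 for 5 of 9 such intestine pairs, and for 16 of 16 enterocyte pairs. Because the spread in intestine was small, though not always within sampling noise, intestine libraries were counted as 1 sample per genotype. Their tests compare 2 sets of libraries, called preparations here, and say nothing about the spread between mice. Enterocyte markers such as Fabp2, Vil1 and Apob had reads in both tables, all 8 of 8 genes listed.

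In enterocytes, Pnliprp2 rose 2.69-fold in the Mfge8 null libraries, and no other lipase or cofactor passed the test. Of the 7 genes with enough reads to test, 1 was higher, 0 were lower and 6 did not pass, where 3.21% of all 9432 genes tested passed in either direction, 1.58% as higher and 1.63% as lower (limma, adjusted p under 0.05). At an unadjusted p under 0.05, 2 of the 7 passed. edgeR and DESeq2 each called 1. The median log2 change of the 7 was -0.24, against 0.0010 for all genes tested. In intestine, Pnliprp2, Clps and Lipa were higher in the Cd36 null preparation. There 3 of 7 tested genes were higher, 0 were lower and 4 did not pass, where 7.5% of 9314 genes passed, 4.21% as higher and 3.3% as lower. DESeq2 called 2 of the 7. At an unadjusted p under 0.05, 5 of the 7 passed. The median log2 change of the 7 was 0.42 against -0.0021 for all. The share of all genes with an unadjusted p under 0.05 was not counted in either table. Counts at that level, here and for the lists below, therefore have no background to be read against. Lpl and G0s2 had too few reads to test in either table.

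**Figure D1:**
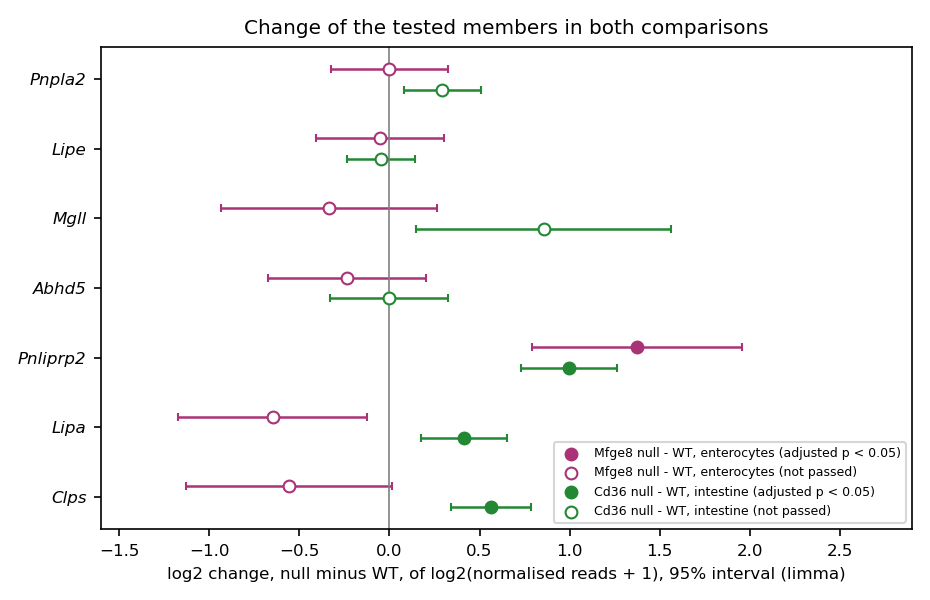
Log2 change (null minus WT, on the log2(value + 1) scale) of the 7 tested genes in the Mfge8 comparison of enterocytes and the Cd36 comparison of intestine, with 95% intervals. Pnliprp2 lies above 0 in both (1.37 and 0.996), and Clps and Lipa lie above 0 in intestine (0.56 and 0.42) and below 0 in enterocytes (-0.56 and -0.65), where neither passed the test.

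Pnliprp2, the lipase of the luminal group, had 8.18, 13.5, 18.03 and 12.9 normalised reads in WT enterocytes. The Mfge8 null libraries had 24.5, 44.9, 39.0, 39.6 and 28.7. Every null library lay above every WT library. The means were 13.2 ± 4.03 (SD, n = 4) and 35.3 ± 8.45 (SD, n = 5), and the log2 change was 1.37 ± 0.28 (SE) with a 95% interval of 0.79 to 1.96 and an adjusted p of 0.0103 in limma. An exact 2-sided permutation test gave p = 0.00794, the smallest that 126 splits allow. Null libraries all above WT libraries were found for 3.35% of genes tested. The gene rests on 7 to 23 reads per WT library and 25 to 41 per null library. The call was lost in 2 alternatives, where the change kept its size: in edgeR without WT 4 and null 3 (log2 1.31, adjusted p 0.0578) and when null 3 and null 5 were both left out (1.40, limma adjusted p 0.0617).

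In intestine, Pnliprp2 had 39.4, 49.6, 45.7 and 54.4 normalised reads in WT and 104.05, 91.6 and 88.8 in Cd36 null. The null libraries lay well above the WT libraries, with no overlap, as for 8.61% of genes tested. The summed reads were 186 and 297, a ratio of 2.02 per unit of library size with a 95% counting interval of 1.67 to 2.43. The log2 change between the preparations was 0.996, with an adjusted p of 5.4e-08 in limma, and passed in all 15 alternatives. The change in enterocytes minus that in intestine was 0.38 with a 95% interval of -0.24 to 0.998 (adjusted p 0.601 in limma on the joined tables), so a difference between the comparisons was not detectable. The interval on the intestine side covers only the making of libraries.

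**Figure D2:**
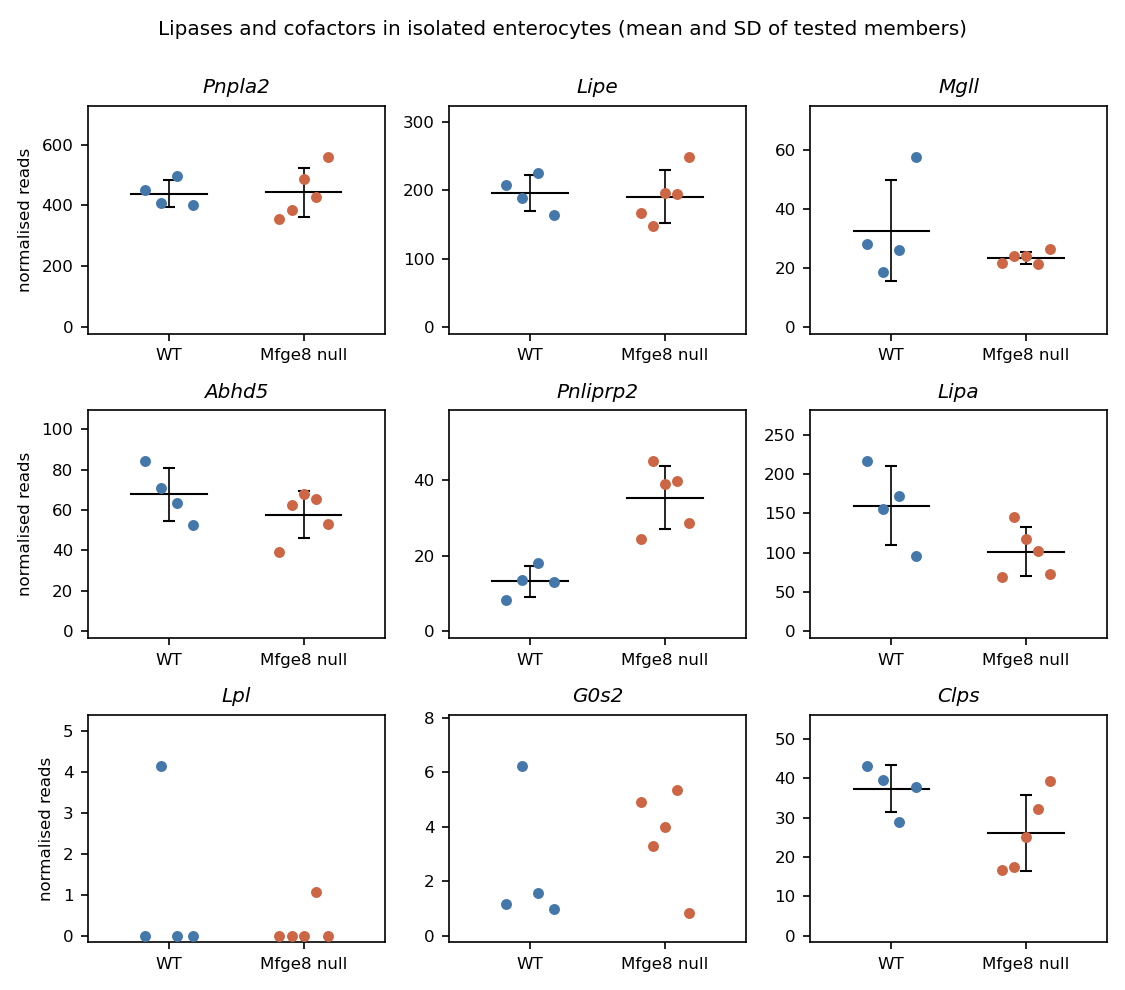
Normalised reads of the 9 genes in each enterocyte library, 4 WT and 5 Mfge8 null, on axes that start at 0; lines and bars give the mean and SD of the 7 tested genes. The Pnliprp2 points of the 2 genotypes do not overlap, whereas those of Pnpla2, Lipe, Mgll, Abhd5, Lipa and Clps do.

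Clps encodes colipase, the cofactor of pancreatic lipase. In WT enterocytes it had 43.3, 39.5, 29.0 and 37.7 normalised reads, and in Mfge8 null enterocytes 16.7, 17.5, 25.0, 32.1 and 39.4. The null libraries spanned from below the lowest WT library to among the highest, so the groups overlapped. The means were 37.4 ± 6.04 (SD, n = 4) and 26.1 ± 9.70 (SD, n = 5), and the log2 change of -0.56 (95% interval -1.13 to 0.01) did not pass (limma adjusted p 0.3245). In intestine, Clps had 70.1, 81.6, 73.8 and 79.0 in WT and 125, 113 and 102 in Cd36 null. All Cd36 null libraries lay above all WT libraries, as for 8.61% of genes tested. The summed reads of 300 and 354 gave a ratio of 1.49 (95% counting interval 1.27 to 1.74), and the log2 change of 0.56 passed (limma adjusted p 0.000219) here and in all 15 alternatives.

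Because Pnliprp2 and Clps are known best from the pancreas, exocrine pancreas markers were read beside them. In enterocytes, 9 of 15 such markers had any reads, their sum was 16.4 to 18.8 in WT and 14.0 to 31.1 in Mfge8 null, and Pnlip, Cel, Cela3b, Try4, Try5 and Amy2a5 were at 0. In intestine, 7 of 15 had reads, with sums of 12.5 to 23.8 in WT and 12.7 to 20.4 in Cd36 null. There Pnlip, Cela3b, Ctrb1, Cpb1, Prss2, Try4, Try5 and Amy2a5 were at 0. Pancreatic lipase itself, the partner of colipase, thus had no read in any of the 16 libraries, while Pnliprp2 and Clps had reads in all of them. The only pancreas marker with enough reads to test, the elastase Cela1, had log2 changes of 0.20 in enterocytes and -0.35 in intestine and passed in neither.

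Pnpla2, adipose triglyceride lipase, was the most abundant of the 9 genes in enterocytes. It had 451, 408, 495 and 402 normalised reads in WT and 356, 386, 485, 429 and 560.2 in Mfge8 null. The WT range lay inside the Mfge8 null range, with 1 null library above all WT libraries and 2 below. The means were 439 ± 43.5 (SD, n = 4) and 443 ± 81.6 (SD, n = 5), and the log2 change was -0.00018 (95% interval -0.33 to 0.33, limma adjusted p 0.9999). That interval leaves room for changes of about 0.798-fold to 1.253-fold. In intestine the WT libraries had 89.3, 88.8, 89.4 and 90.3, and the Cd36 null libraries 116, 95.8 and 119. All null libraries lay above all WT libraries, as for 8.61% of genes tested. The change of 0.29 did not pass (limma adjusted p 0.0878) and passed in 1 of 15 alternatives, with null 2 left out (0.39, adjusted p 0.0331). The ratio of summed reads was 1.24 (95% counting interval 1.07 to 1.44).

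Abhd5, the activator of adipose triglyceride lipase, had 84.2, 70.7, 63.5 and 52.6 normalised reads in WT enterocytes and 39.2, 62.5, 67.9, 65.3 and 53.3 in Mfge8 null. The groups overlapped, with a log2 change of -0.24 (95% interval -0.67 to 0.20, limma adjusted p 0.636). In intestine it had 41.3, 44.4, 39.5 and 38.0 in WT and 35.3, 37.3 and 50.9 in Cd36 null. These also overlapped, with a ratio of summed reads of 1.01 (95% counting interval 0.796 to 1.28). The inhibitor G0s2 was near the limit of detection, with 10 reads in all WT and 18 in all Mfge8 null enterocyte libraries. In intestine it had 0 reads in WT, which allows up to 0.857 rpm (reads scaled to a library of 1e+06 reads) over the group, and 2 reads, both in Cd36 null 1.

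Lipe, hormone-sensitive lipase, had 208, 188, 226 and 164 normalised reads in WT enterocytes and 167, 148, 197, 195 and 249 in Mfge8 null. The groups overlapped, and the log2 change of -0.05 (95% interval -0.41 to 0.30) did not pass (limma adjusted p 0.921). In intestine, the values were 129, 126, 138 and 135 in WT and 138, 124 and 122 in Cd36 null. These overlapped too, with a ratio of summed reads of 0.972 (95% counting interval 0.851 to 1.11) and a limma adjusted p of 0.866. Lipe was thus the gene with the smallest difference between the 2 comparisons, -0.01 on the log2 scale (limma adjusted p 0.992).

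Mgll, monoglyceride lipase, had 28.1, 18.7, 25.9 and 57.6 normalised reads in WT enterocytes and 21.5, 24.1, 23.97, 21.4 and 26.2 in Mfge8 null. A single library, WT 4, stood above the rest, and the other libraries of both genotypes lay close together. The log2 change was -0.34 (95% interval -0.94 to 0.26, limma adjusted p 0.617). In intestine Mgll had 8.64, 4.13, 11.4 and 4.10 in WT and 9.05, 11.7 and 18.5 in Cd36 null, with 1 WT library inside the range of the null libraries. The summed reads were only 28 and 41, and their ratio was 1.85 (95% counting interval 1.12 to 3.10). The log2 change of 0.86 did not pass (limma adjusted p 0.148).

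**Figure D3:**
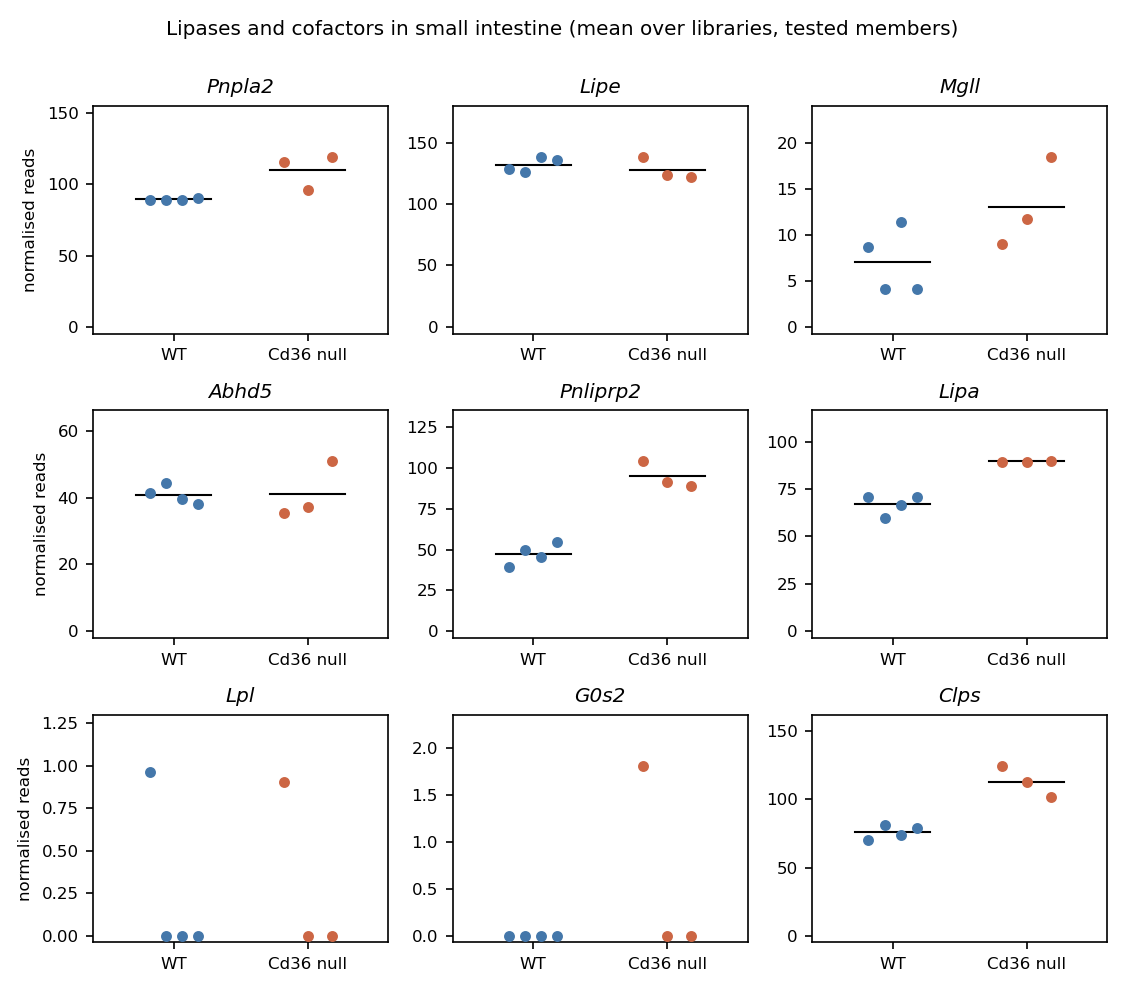
Normalised reads of the 9 genes in each intestine library, 4 WT and 3 Cd36 null, on axes that start at 0; lines give the mean over libraries of the 7 tested genes, and no SD is drawn because libraries of a genotype were counted as 1 sample. Pnliprp2, Clps, Lipa and Pnpla2 lie higher in all Cd36 null libraries than in any WT library, as do 8.61% of all genes tested. Pnpla2 did not pass the test. Lpl and G0s2 have 2 reads each over all 7 libraries.

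Lipa, lysosomal acid lipase, had 216, 155, 172 and 95.3 normalised reads in WT enterocytes and 69.5, 145, 117, 102 and 73.0 in Mfge8 null. WT 4 lay among the null libraries, and the other WT libraries lay above all of them. The means were 160 ± 50.1 (SD, n = 4) and 101 ± 31.4 (SD, n = 5). The log2 change was -0.65 ± 0.25 (SE) with a 95% interval of -1.17 to -0.12, and did not pass (limma adjusted p 0.1945). Without WT 4 it was -0.88 and passed (adjusted p 0.0452). In intestine, Lipa had 71.1, 59.9, 66.5 and 70.8 in WT and 89.6, 89.5 and 89.7 in Cd36 null. Every null library lay above every WT library, as for 8.61% of genes tested. The log2 change of 0.42 passed (limma adjusted p 0.0176), and the ratio of summed reads was 1.33 (95% counting interval 1.12 to 1.58). The intestine call was lost in 5 of 15 alternatives, among them DESeq2 (adjusted p 0.218) and leaving out WT 2 (0.0678), null 1 (0.0700), null 2 (0.0554) or null 3 (0.0650).

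The position along the gut that a library samples was read from a regional score, the mean log2 level of proximal intestine markers minus that of ileal markers. In enterocytes the score was 1.85, 0.36, 0.53 and -0.64 in WT and -0.63, 0.43, -1.13, 1.15 and -1.92 in Mfge8 null, so the genotypes overlapped. Of its 4 proximal markers, 1 was lower in Mfge8 null, Onecut2 (log2 change -1.23, limma adjusted p 0.0401). Of its 5 ileal markers, 1 was higher, Slc51b (0.81, limma adjusted p 0.00615). Over all genes tested in enterocytes, 1.63% passed as lower and 1.58% as higher, and in intestine 3.3% and 4.21%. The ileal marker Cubn had a change of -1.46 that did not pass (limma adjusted p 0.0549), so the markers of a region did not all move together. With the score as a covariate, the log2 change of Lipa was -0.38 (limma adjusted p 0.499), that of Clps -0.61 (0.408) and that of Pnliprp2 1.39 (0.0311). In intestine the score was -0.18, -0.33, -0.03 and -0.21 in WT and 0.12, 0.30 and 0.32 in Cd36 null, without overlap. Of its 5 proximal markers, 1 was higher, Bco1 (log2 change 1.55, limma adjusted p 2.3e-11), and the others changed by -0.48 (Slc40a1) to 0.10 (Gata4). Among its 6 ileal markers Fabp6 (-1.99) and Slc51a (-0.20) were lower, while Fgf15 (1.57) was higher. The markers of a region did not all move together in intestine either. There the score and the genotype cannot be told apart, and the part of either in the higher Pnliprp2, Clps and Lipa was not tested.

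**Figure D4:**
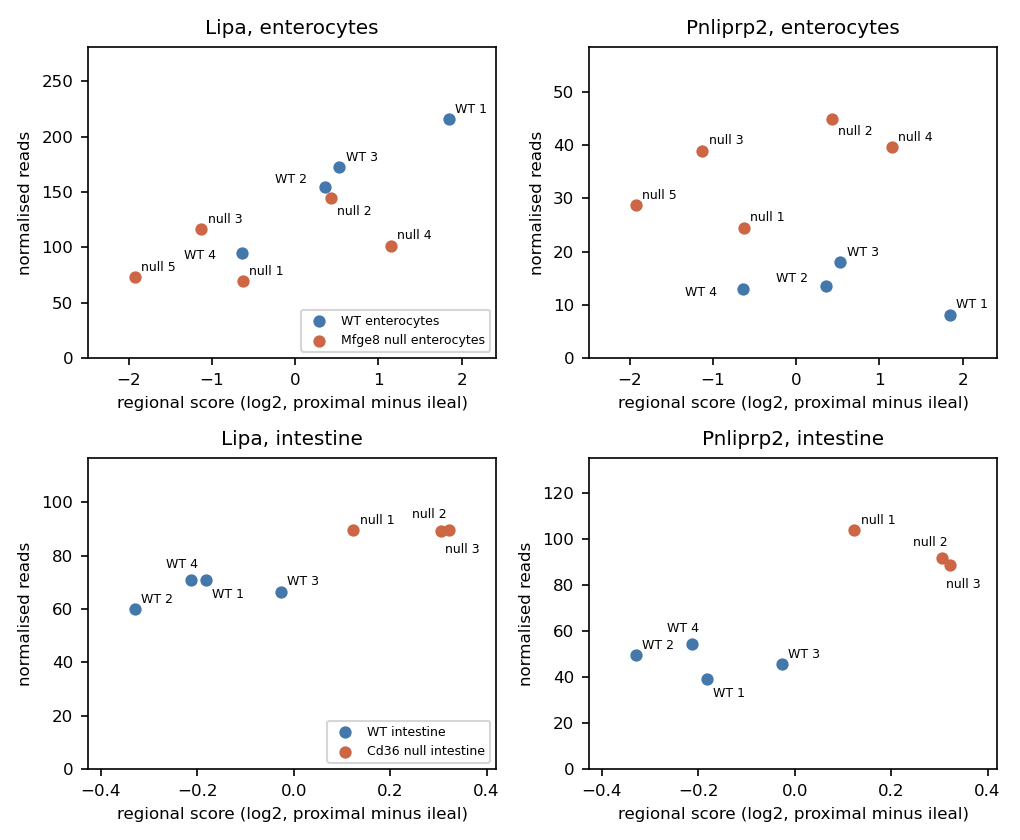
Normalised reads of Lipa and Pnliprp2 against the regional score (proximal minus ileal markers, log2) in each enterocyte library (top) and intestine library (bottom). In enterocytes the WT and Mfge8 null libraries share a range of scores, while in intestine all Cd36 null libraries (0.12 to 0.32) lie to the right of all WT libraries (-0.33 to -0.03).

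The difference between the comparisons passed the test for Lipa and Clps, in a fit that takes the intestine libraries as separate samples and gives their table more weight for its small spread. The change in enterocytes minus that in intestine was -1.06 for Lipa (95% interval -1.62 to -0.51, limma adjusted p 0.0190) and -1.12 for Clps (-1.71 to -0.54, adjusted p 0.0195), where 4.56% of the 8560 genes tested in both tables passed, 2.22% with the lower change in enterocytes. Both calls were lost when libraries of the 2 tables got equal weights (adjusted p 0.0749 and 0.0586), and neither gene passed in enterocytes alone. Across mice the difference was therefore not tested. Mgll had a difference of -1.19 that did not pass (-2.24 to -0.14, adjusted p 0.219). For Pnpla2 and Abhd5 the differences were -0.29 and -0.23 (adjusted p 0.437 and 0.744). The comparisons differ in the gene deleted and in the sample, isolated cells or tissue, and these cannot be told apart.

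Lpl, lipoprotein lipase, was near the limit of detection. It had 4 reads in WT 2 and 1 read in Mfge8 null 4 of the enterocytes, and 1 read in WT 1 and 1 in Cd36 null 1 of the intestine, and 0 in the other 12 libraries. Endothelial markers were read because lipoprotein lipase acts at the capillary wall. They summed to 11.0 to 25.8 in WT and 15.4 to 26.5 in Mfge8 null enterocytes, and to 8.26 to 21.6 in WT and 12.8 to 16.3 in Cd36 null intestine. Most of each sum was Pecam1 and Lyve1, with means of 11.2 and 5.62 in WT enterocytes and 3.53 and 9.92 in WT intestine. Cdh5 was at 0 in both tables and Kdr in intestine. Of 7 adipocyte markers, Adipoq, Plin1, Cfd, Retn and Lep were at 0 in enterocytes, and Fabp4, Cfd, Retn and Lep in intestine. The list summed to 117 to 179 in WT and 109.7 to 259.7 in Mfge8 null enterocytes, and to 22.1 to 33.9 in WT and 34.1 to 48.0 in Cd36 null intestine. Nearly all of each sum was Cidec, a lipid droplet protein (117 to 179 and 108.7 to 259.7 in enterocytes, 22.1 to 33.9 and 34.1 to 47.0 in intestine), which passed in neither table (limma adjusted p 0.429 and 0.153). Muscle markers summed to at most 3.92 in enterocytes and 9.95 in intestine.

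On the scale of rpm, the order of mean levels differed between the samples. In WT enterocytes the order was Pnpla2 (224 to 257), Lipe (93.9 to 117), Lipa (54.7 to 114), Abhd5 (30.2 to 44.5), Clps (15.04 to 22.9), Mgll (10.3 to 33.0) and Pnliprp2 (4.33 to 9.35), with Lipe and Lipa, Abhd5 and Mgll, and Mgll and Clps overlapping. In WT intestine it was Lipe (141 to 156), Pnpla2 (99.4 to 101.9), Clps (79.1 to 91.3), Lipa (67.0 to 80.2), Pnliprp2 (44.4 to 61.4), Abhd5 (42.9 to 49.7) and Mgll (4.62 to 12.9). There Clps and Lipa overlapped, as did Pnliprp2 and Abhd5. In Cd36 null intestine Pnliprp2 stood at 98.1 to 114.9, beside Pnpla2 (105 to 132) and Lipa (98.5 to 99.2) and below Lipe (135 to 153). The Pnliprp2 ranges of the 4 groups did not overlap, and Mfge8 null enterocytes (13.4 to 22.9) lay between WT enterocytes and WT intestine. The tables were normalised separately and come from different samples, so these levels are set side by side without a test.

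**Figure D5:**
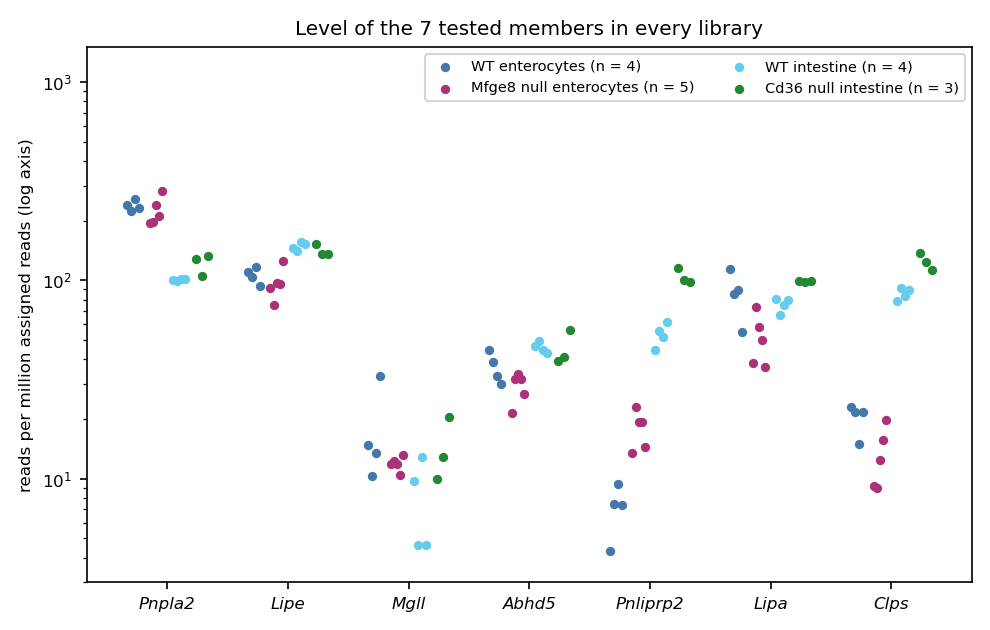
Rpm of the 7 tested genes in every library of the 4 groups, on a log axis. Pnliprp2 takes a separate range in each group, from 4.33 to 9.35 in WT enterocytes to 98.1 to 114.9 in Cd36 null intestine, while Abhd5 stays between 21.5 and 56.2 in all of them.

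Markers of other cell types were read beside these results. Over all genes tested in enterocytes, 3.21% passed in limma, 1.58% as higher and 1.63% as lower. In intestine 7.5% passed, 4.21% as higher and 3.3% as lower. In bulk samples, fewer cells of a type and less RNA per cell cannot be told apart. In enterocytes, 11 markers of T cells and intraepithelial lymphocytes summed to 1363 to 4200 in WT and 3726 to 9092 in Mfge8 null. Of the 10 tested, 0 passed in limma and edgeR and 3 in DESeq2, and 7 had an unadjusted p under 0.05. B cell and plasma cell markers summed to 17.5 to 124 and 206 to 501, without overlap, and 1 of 4 tested was higher. That was Jchain, the joining chain of secreted antibodies, which carried the sum (14.0 to 116 in WT and 188.5 to 438 in Mfge8 null, log2 change 2.55, limma adjusted p 0.00331). The other tested genes had log2 changes of 1.86 (Mzb1), 0.12 (Cd79b) and -0.62 (Ms4a1). In intestine the T cell markers summed to 985 to 1299 in WT and 766 to 837 in Cd36 null, with 4 of 10 lower (Cd7, Gzmb, Ccl5 and Itgae). Goblet cell markers were 7367 to 7662 and 8746 to 8935, with 4 of 7 higher. In the isolated enterocytes they summed to 48866 to 81081 in WT and 32429 to 1.04e+05 in Mfge8 null. There 0 of 7 passed in limma, edgeR or DESeq2. The 8 enterocyte markers summed to 33283 to 47707 and 32886 to 63672 in the same libraries. Most of the goblet cell sum in enterocytes was Zg16 (37730 to 62780 in WT and 25010 to 87410 in Mfge8 null). Tff3 and Muc2 had WT means of 4856 and 3274, and Agr2 and Spdef of 362 and 13.3. Goblet cell transcripts, Zg16 above all, were thus present in the isolated enterocytes and varied between libraries. Ileal markers in intestine summed to 1007 to 1082 and 736 to 802, with 2 of 6 lower and 1 higher. The bile acid binding protein Fabp6 (263 to 284 and 62.9 to 77.7) and the bile acid transporter subunit Slc51a (514 to 536 and 435 to 476) were lower, and the hormone Fgf15 was higher (5.16 to 10.3 and 20.8 to 27.7). Paneth cell markers summed to 858 to 3411 in WT and 652 to 3245 in Mfge8 null enterocytes, where 0 of 7 passed in limma and DESeq2, 1 in edgeR and 1 at an unadjusted p under 0.05. In intestine they were 1177 to 1276 and 1089 to 1115, with 1 of 7 higher and 3 lower. Macrophage markers overlapped between genotypes in both tables (46.3 to 71.7 and 24.1 to 101 in enterocytes, 8.26 to 15.6 and 8.33 to 18.1 in intestine). Fibroblast markers summed to at most 6.24 in enterocytes, and to 19.2 to 33.3 in WT and 9.95 to 11.7 in Cd36 null intestine. Most of the intestine sum was Dcn, the only fibroblast marker with enough reads to test there. Its values were 15.4 to 27.0 in WT and 7.24 to 10.65 in Cd36 null (log2 change -1.135, limma adjusted p 0.00336). The part of these cells in the changes of Pnliprp2, Clps and Lipa was not tested.

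Of 22 other neutral lipid hydrolases, 11 could be tested in enterocytes, and 1, the lysophospholipase Pnpla7, was higher in Mfge8 null, from 16.9 ± 3.50 (SD, n = 4) to 39.2 ± 14.8 (SD, n = 5), with a log2 change of 1.12 (limma adjusted p 0.0382), where 3.21% of all genes tested passed. That call was lost in 11 of 20 alternatives. In intestine 12 could be tested and 1 was higher in the Cd36 null preparation, Faah, which breaks down fatty acid amides, from 45.4 to 57.6 in WT to 63.3 to 79.9 (0.45, limma adjusted p 0.0286), a call lost in 6 of 15 alternatives, where 7.5% of all genes passed. The medians of the list were 0.11 and -0.07.

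Of 19 regulators of lipolysis, such as lipid droplet coat proteins and subunits of protein kinase A, 10 were tested in enterocytes. In limma 0 passed, while edgeR and DESeq2 called 1 each and 3 had an unadjusted p under 0.05. Plin2, which coats lipid droplets, had a log2 change of -0.91 (limma adjusted p 0.0547). In intestine 1 of 11 passed, where 7.5% of all genes tested passed. That was Prkacb, a catalytic subunit of protein kinase A. Its values fell from 37.5 to 60.3 in WT to 21.3 to 37.0 in the Cd36 null preparation (-0.85, limma adjusted p 0.000692). In enterocytes the same gene had a log2 change of 0.99 that did not pass (adjusted p 0.102). The list medians were 0.18 and 0.04.

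Of 13 genes that assist or restrain lipoprotein lipase, 5 were tested in each table and 0 passed in limma in either. At an unadjusted p under 0.05 there were 2 in each. In enterocytes edgeR called 0 and DESeq2 1, and in intestine 1 and 0. Among 18 lysosomal genes, the setting in which Lipa works, 0 of 17 tested passed in enterocytes in limma, edgeR or DESeq2, with 2 at an unadjusted p under 0.05. In intestine 1 of 18 was higher in the Cd36 null preparation, where 4.21% of all genes tested were higher. That was the protease Ctsl, from 22.9 to 25.7 in WT to 36.1 to 39.4 (0.59, limma adjusted p 0.0335), a call lost in 7 of 15 alternatives. The list medians were -0.08 and 0.02. Its single genes ranged more widely, as with Npc1 (0.68) and Tfeb (-0.53) in enterocytes and Mcoln1 (0.95) in intestine, none of which passed, and which were named after their values were seen.

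The genes whose profile over the 9 enterocyte libraries was most like that of Pnliprp2 were Tinagl1, Fam83h and Sema4b. The measure was the root mean square of log2 differences between profiles centred on their own means, which was 0.21, 0.26 and 0.29 for them and 0.85 for the median of 9431 genes. Tinagl1, which encodes a secreted matrix protein, had 17.8 ± 6.59 (SD, n = 4) in WT and 46.5 ± 16.8 (SD, n = 5) in Mfge8 null. Fam83h had 31.4 ± 12.7 and 70.3 ± 14.8, and Sema4b, a membrane semaphorin, 79.7 ± 14.95 and 152 ± 27.3. In intestine their log2 changes were 0.15, 0.27 and 0.14, and none of the 3 passed in limma (adjusted p 0.730, 0.618 and 0.669), where Pnliprp2 had 0.996. The positions of these 3 genes, and how near they lie to Mfge8, were not examined. A part of sequence near the deleted gene in their changes was not tested.

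Some readings depend on where a gene lies. The 3' end of Lipe (chr7:25379527-25398710, minus strand) is overlapped by 4732471J01Rik on the opposite strand, that of Abhd5 (chr9:122351608-122381524, plus strand) by A730085K08Rik, and that of G0s2 (chr1:193272161-193273217, minus strand) by Lamb3. Whether counting used strand is not given in the sources used here, so the reads of each pair cannot be told apart. Pnpla2 (chr7:141455198-141460743) and Lipe share chromosome 7 with Mfge8, at 62.3 and 53.8 Mb from it. Pnliprp2 and Lipa overlap no other annotated gene. Clps (chr17:28558149-28560766, minus strand) contains a microRNA gene, Mir6969, on the same strand. Mgll lies at chr6:88724412-88828360 on the plus strand and Lpl at chr8:68880491-68907448 on the plus strand.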

How the data were processed

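RNA of isolated enterocytes and of small intestinal tissue was sequenced as 3' tags with a kit that adds unique molecular identifiers, per the labels' protocols. The submitters' processing notes name DESeq2 2.11.40, HTSeq 0.91, HISAT2 2.1.0 and Trimmomatic 0.38.1, and build mm10. Their order, settings, and the use of identifiers and strand are not given in the sources used here. Without collapsing by identifier, reads are not independent molecules, so intervals and the limit for a count of 0 (3 reads) cover counting error only. The deposited values are a normalised signal in 2 tables: within each library 100% of values were, to a tolerance of 1e-06, whole multiples of that library's lowest value above 0, so reads were recovered (less certain for WT 4 and null 3 of the enterocytes).

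Genes that reached 5 in a number of libraries no smaller than the smaller group were tested on log2(value + 1) with limma 3.58.1 (trend, 2-sided, Benjamini-Hochberg over all genes, threshold 0.05; R 4.3.3), which understates changes of low genes. Permutation tests were exact. The difference between comparisons was tested on the joined log2 values with a weight for each table estimated from its spread. edgeR 4.0.16 and DESeq2 1.42.0 on recovered reads, other pseudocounts (0.5 and 5), filters, scaling, left-out libraries, a replicate block and the regional score were alternatives. The procedures were tested on simulated data.

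The members and gene lists were chosen with earlier results of these data known. Genes were named by rule: all 9 members, the targeted genes, the genes of 4 wider lists that passed (at most 3 per list in intestine) and the 3 genes most like a member that passed in enterocytes; Plin2, and Prkacb in enterocytes, were named after their values were seen. Further marker lists covered Paneth cells, macrophages and fibroblasts, and 1 marker of the exocrine pancreas list is not reported here.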

Additional observations from a re-analysis of the deposited data

Results flagged for a closer look

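In 4 of 26 sets of member values a single library stood far from the others of its group by a test (Dixon) that by chance flags about 1 in 20 groups of normally distributed values. That rate does not hold for Lpl, where a single library with any read stands against libraries at 0. The sets were Lpl in WT enterocytes (4.16 normalised reads in WT 2, the others at 0), Lpl in Mfge8 null enterocytes (1.07 in null 4, the others at 0), Lpl in WT intestine (0.960 in WT 1, the others at 0) and G0s2 in WT enterocytes (6.24 in WT 2, the others 0.993 to 1.57). Each rests on 6 reads or fewer.

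The log2 change in the Mfge8 comparison minus that in the Cd36 comparison passed the test for Lipa (-1.06) and Clps (-1.12) in limma on the joined tables (adjusted p 0.0190 and 0.0195), and did not pass with equal weights for the 2 tables (0.0749 and 0.0586).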

How the results depend on the processing

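In the Mfge8 comparison 303 genes passed, against 140 to 388 when a single library was left out (WT 1 gave 140, WT 2 173, null 3 185 and null 5 199), 172 with the regional score as covariate and 116 without null 3 and null 5. Of its lipases and cofactors, 1 passed, against 1 to 2 with a library left out (2 without WT 4) and 0 in edgeR without WT 4 and null 3 or in limma without null 3 and null 5; the last choices were made after seeing the data. In the Cd36 comparison 699 genes passed, 318 in DESeq2 and 501 to 615 with a library left out, and its 3 lipases and cofactors became 2 to 3. The test of the difference called 390 genes, 235 with equal weights and 419 at a pseudocount of 5. Changes near 0 switched sign: Pnpla2 in enterocytes in edgeR (0.0011), DESeq2 (0.013) and with a library left out (-0.089 to 0.074), Lipe in enterocytes with a library left out (-0.15 to 0.034), Ctsl in enterocytes with the regional score (0.13) or without null 3 and null 5 (0.12), and Abhd5 in intestine in edgeR (0.017), DESeq2 (0.014) and with a library left out (-0.16 to 0.10). The cause of these shifts was not tested.

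Libraries of a table share replicate numbers only: deviations of same-numbered libraries correlated at -0.12 to 0.214 in 4 enterocyte pairs, 1 of which was best with its own number, and -0.0147 to 0.00334 in 3 intestine pairs, 0 of which were. With the replicate block 229 genes and 1 member passed in enterocytes and 643 genes and 3 members in intestine; the calls of Pnpla7 (adjusted p 0.0719) and Faah (0.0529) were lost. Depth limits Lpl, G0s2 and Mgll in intestine most.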

Other observations

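The products of Pnliprp2 and Clps both act on lipid in the gut lumen. The ratio of Pnliprp2 to Clps reads was 0.189, 0.342, 0.622 and 0.342 in WT enterocytes and 1.47, 2.56, 1.56, 1.23 and 0.729 in Mfge8 null enterocytes. It was 0.562, 0.608, 0.620 and 0.688 in WT intestine and 0.833, 0.811 and 0.873 in Cd36 null intestine. In both tables every null library lay above every WT library. Pnliprp2 alone already separated the genotypes in both tables, so the ratio is not a separate result. It was chosen after the values were seen and carries no test. For comparison, the ratio of Pnpla2 to its activator Abhd5 was 5.36 to 7.80 in WT and 6.18 to 10.5 in Mfge8 null enterocytes, which overlapped, and 2 to 2.38 in WT and 2.35 to 3.28 in Cd36 null intestine, which also overlapped.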
